A study of Mus musculus with 30 samples.

Results

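The genes described here are 10 markers of neutrophils and their bone marrow precursors, *S100a8*, *S100a9*, *Elane*, *Mpo*, *Prtn3*, *Camp*, *Ltf*, *Ngp*, *Ly6g* and *Fcnb*, in the fracture callus of mice lacking *Apex1* in limb mesenchyme and of their littermates. They were chosen by symbol, and each symbol matched 1 of the 55416 gene IDs of the count table, so that all 10 were measured in all 30 samples. All 10 passed the filter on low counts at every time point.

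Neutrophils are short-lived white blood cells that are made in the bone marrow and are among the first cells to enter a fracture hematoma. Their granule proteins are made in sequence as the precursor matures. Promyelocytes make the azurophil granule proteins, myelocytes and metamyelocytes make the specific granule proteins, and the cytoplasmic S100 proteins and surface molecules build up as the cell nears release. Transcripts of azurophil granule genes are therefore commonly read as a sign of precursors, as found in marrow, and are low in mature blood neutrophils. *S100a8* and *S100a9* are also transcribed in monocytes.

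Bulk total RNA was sequenced from the callus of adult mice after a closed, non-stabilized tibial fracture, at 3, 6, 10 and 14 days post fracture (dpf). P-Apex1KO mice (Prrx1-Cre+;Apex1C/C) carried the Cre driver of limb bud mesenchyme and a conditional *Apex1* allele on each chromosome, and WT littermates were Prrx1-Cre+/-;Apex1C/+, Apex1C/C or Apex1C/+, so that every mouse carried at least 1 conditional allele and some WT mice carried Cre. Prrx1-Cre marks mesenchyme and not the blood lineage, to which neutrophils belong. The groups held 4 WT (2 females, 2 males) and 4 P-Apex1KO samples (1 female, 3 males) at 3-dpf, 5 WT (3 females, 2 males) and 3 P-Apex1KO samples (1 female, 2 males) at 6-dpf, 4 WT (2 females, 2 males) and 3 P-Apex1KO samples (1 female, 2 males) at 10-dpf, and 4 WT (1 female, 3 males) and 3 P-Apex1KO samples (3 females) at 14-dpf. The labels call every sample fracture callus, but the study describes the 3-dpf samples as tibiae dissected near the break and those of 6-dpf as whole callus, so how much bone and marrow a sample held may differ between these times, and dissection and time cannot be told apart. In bulk samples fewer cells of a type and less RNA per cell cannot be told apart.

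Libraries held between 18334389 and 43111491 counts on genes. *Apex1* lay at 20.7 to 28.9, 16.9 to 27.5 and 19.8 to 27.2 CPM (counts scaled to library size) in WT and at 15.1 to 15.8, 14.0 to 16.8 and 14.2 to 18.6 CPM in P-Apex1KO mice at 6-, 10- and 14-dpf, with no overlap between genotypes at any of these times. By edgeR with sex in the model it was lower at 6-dpf (log2 fold change -0.67 ± 0.11, adjusted p = 0.00710) and 10-dpf (-0.65 ± 0.13, adjusted p = 0.0278) but did not pass at 14-dpf (-0.29 ± 0.19, adjusted p = 0.367) or 3-dpf (-0.15 ± 0.19, adjusted p = 0.927). At 3-dpf it lay between 26.4 and 33.1 CPM in WT, and between 18.4 and 34.5 CPM in the libraries labelled P-Apex1KO, 1 of which lay above every WT library. Sample names follow one style at 3- and 6-dpf (16 libraries) and another at 10- and 14-dpf (14 libraries), so a library batch and time cannot be told apart between 6- and 10-dpf, and no test was made across them. P-Apex1KO replicate 1 at 3-dpf stood apart from all other libraries, with the lowest level of 8 of the 10 genes, and results that rest on it are given with and without it.

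The azurophil granule members were *Elane* (chr10:79722081-79724051, plus strand) and *Prtn3* (chr10:79710310-79719008, plus strand), which encode the serine proteases neutrophil elastase and proteinase 3 and are neighbours, and *Mpo* (chr11:87684407-87695239, plus strand), which encodes the peroxidase that makes hypochlorous acid. The specific granule members were *Camp* (chr9:109676442-109678685, minus strand), the cathelicidin precursor, *Ngp* (chr9:110248815-110252086, plus strand), a related granule protein, *Ltf* (chr9:110848339-110871835, plus strand), the iron-binding lactoferrin, and *Fcnb* (chr2:27966389-27974897, minus strand), a sugar-binding ficolin. *S100a8* (chr3:90567118-90578128, plus strand) and *S100a9* (chr3:90599931-90603071, minus strand) encode the subunits of calprotectin, a calcium- and zinc-binding protein of the cytoplasm. *Ly6g* (chr15:75027089-75030982, plus strand) encodes a surface protein used to sort mouse neutrophils. Coordinates are of GRCm39 with GENCODE M39 genes. *Mpo* and *Prtn3* overlap another gene on the other strand, and the authors counted reads by strand.

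The azurophil and the specific granule members differed in the short motifs before their start sites, and 6 of these promoters are shown for that reason, chosen after the matches were seen. C/EBP factors and PU.1 are transcription factors of the granulocyte lineage. The letters TTGCNNAA (a C/EBP-type match) and GAGGAA (a PU.1-type match) were searched on both strands in the 250 bases before the canonical transcript start. The last 150 bases before the start are printed 5′ to 3′ on the gene's strand, from GRCm39, with matches in capitals, at chr10:79721931-79722080 (plus) for *Elane*, chr11:87684257-87684406 (plus) for *Mpo*, chr10:79715298-79715447 (plus) for *Prtn3*, chr9:109678686-109678835 (minus) for *Camp*, chr9:110248665-110248814 (plus) for *Ngp* and chr9:110848189-110848338 (plus) for *Ltf*.
Elane: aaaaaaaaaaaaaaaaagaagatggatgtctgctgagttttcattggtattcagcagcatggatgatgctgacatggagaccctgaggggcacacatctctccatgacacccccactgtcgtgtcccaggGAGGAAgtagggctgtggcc
Mpo: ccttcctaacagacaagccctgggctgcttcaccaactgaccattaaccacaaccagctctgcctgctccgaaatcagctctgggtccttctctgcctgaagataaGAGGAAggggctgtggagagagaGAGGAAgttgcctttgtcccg
Prtn3: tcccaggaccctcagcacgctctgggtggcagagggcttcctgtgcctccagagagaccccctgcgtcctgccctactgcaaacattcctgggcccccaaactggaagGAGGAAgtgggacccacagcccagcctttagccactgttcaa
Camp: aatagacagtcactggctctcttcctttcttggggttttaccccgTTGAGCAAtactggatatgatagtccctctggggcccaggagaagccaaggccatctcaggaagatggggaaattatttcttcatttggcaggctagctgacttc
Ngp: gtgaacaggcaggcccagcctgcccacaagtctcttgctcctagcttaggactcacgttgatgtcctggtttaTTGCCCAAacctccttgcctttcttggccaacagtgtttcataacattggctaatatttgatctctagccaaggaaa
Ltf: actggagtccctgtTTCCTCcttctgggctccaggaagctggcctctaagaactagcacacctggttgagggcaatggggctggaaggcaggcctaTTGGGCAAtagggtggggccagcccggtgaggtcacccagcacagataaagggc

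*Elane*, *Mpo* and *Prtn3* each held GAGGAA and no TTGCNNAA in the 250 bases, and in *Mpo* GAGGAA occurred at 2 places. *Camp*, *Ngp* and *Ltf* each held TTGCNNAA, and *Ltf* also held the reverse complement of GAGGAA. Of the other members, *S100a9* and *Fcnb* held TTGCNNAA, *S100a8* held GAGGAA, and *Ly6g* held both. In all, 6 of the 10 members held TTGCNNAA and 6 held GAGGAA, against 9.34% and 22.9% of the 21757 protein-coding promoters of the same length. A match is a description of the letters and not evidence of binding.

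The order of the genes was nearly the same in every library. On the scale of CPM per kilobase of the canonical transcript, *S100a8* ranked 1 or 2 among the 10 in all 30 libraries, with a mean level of 1723, followed by *S100a9* at 1401 and *Ngp* at 809. *Camp* (258) and *Ltf* (190) ranked 4 or 5 throughout, *Mpo* (100.4), *Elane* (82.4) and *Prtn3* (68.2) 6 to 8, and *Fcnb* (23.8) and *Ly6g* (15.4) 9 or 10. Levels of one gene varied much more between libraries than this order did. The highest CPM was 8.66 times the lowest for *S100a8* and 14.4 times the lowest for *S100a9*, with the other 8 genes between. The lowest count behind any value was 75, for *Ly6g*.

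The genes also took a share of the libraries that differed between times. The 10 together made up 0.499% ± 0.123 (SD, n = 4) of all counts in WT and 0.587% ± 0.367 (n = 4) in the libraries labelled P-Apex1KO at 3-dpf. The share was 0.436% ± 0.0626 (n = 5) and 0.559% ± 0.142 (n = 3) at 6-dpf, 0.190% ± 0.0733 (n = 4) and 0.382% ± 0.110 (n = 3) at 10-dpf, and 0.148% ± 0.0266 (n = 4) and 0.328% ± 0.0529 (n = 3) at 14-dpf. WT callus thus held the highest share at 3- and 6-dpf and the lowest at 14-dpf, with the reservation on library batch given above.

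**Figure D1:**
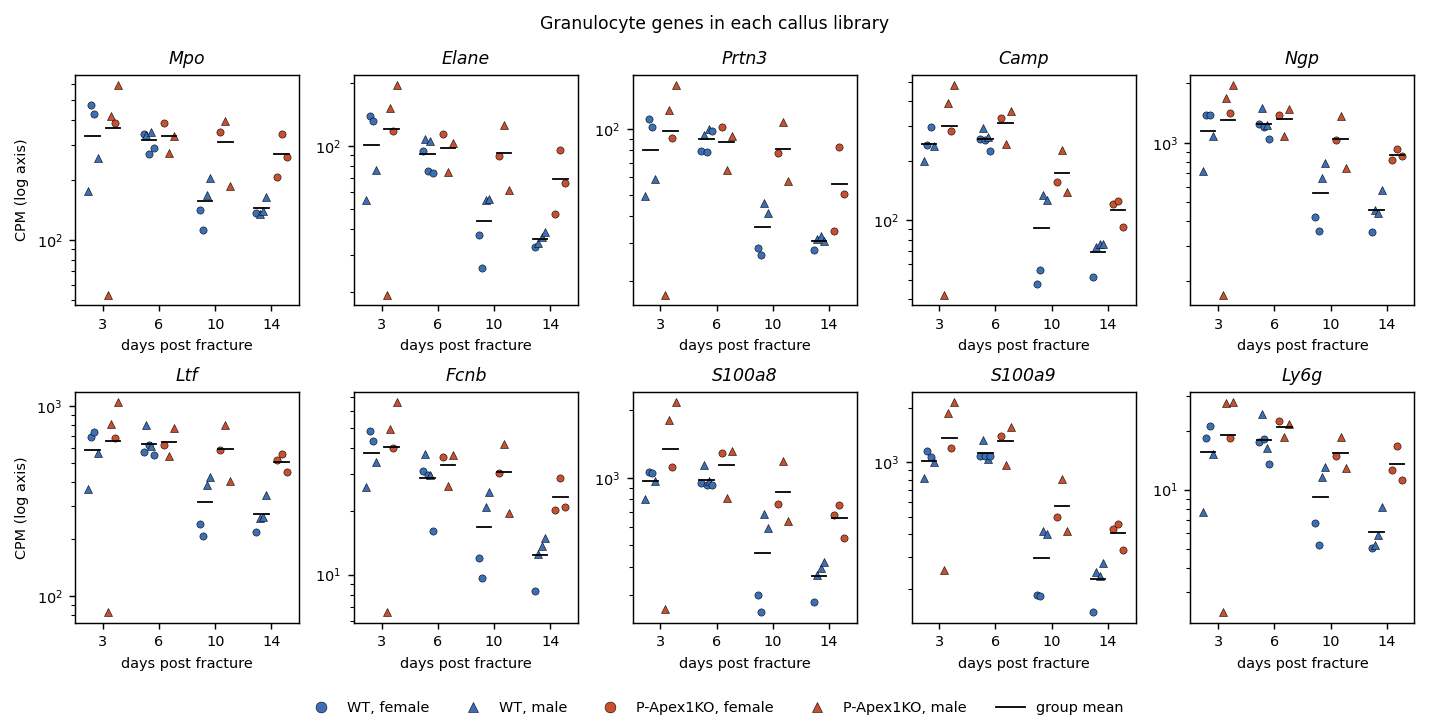
CPM on a log axis (vertical) against days post fracture (horizontal) for each of the 10 genes; every point is 1 library, circles are females, triangles males, and black lines are group means. At 14-dpf every P-Apex1KO library lies above every WT library for all 10 genes, and at 3-dpf 1 library labelled P-Apex1KO lies far below the others.

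The comparison at 3-dpf asked whether the inflammatory callus differed between genotypes in its granulocyte transcripts. None of the 10 genes passed the test, and the libraries labelled P-Apex1KO spanned a wider range than WT for each. *S100a8* was at 807, 1059, 1051 and 966 CPM in WT and at 259, 1812, 1112 and 2169 CPM in the libraries labelled P-Apex1KO. The last 3 of these lay above every WT library, and the first lay below every one. *Mpo* was at 176, 474, 424 and 256 CPM in WT and at 53.3, 417, 386 and 595 CPM in the libraries labelled P-Apex1KO. *Ngp* was at 720, 1383, 1378 and 1089 CPM and at 169, 1698, 1417 and 1964 CPM, respectively. Replicate 1 was the lowest WT library for all 10 genes and replicate 1 the lowest library labelled P-Apex1KO for all 10.

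With genotype and sex in the model, the log2 fold changes (P-Apex1KO over WT) of the 10 genes at 3-dpf ran from 0.21 for *Fcnb* to 0.51 for *Elane*, with a median of 0.42 against -0.0028 over all 19866 genes tested. Their standard errors were 0.61 to 0.73, and adjusted p-values were at least 0.933 (edgeR quasi-likelihood test, Benjamini-Hochberg adjustment). No member passed and 0% of all genes passed higher; none of the 10 had an unadjusted p under 0.05, and DESeq2 also called 0. The median was 0.71 without P-Apex1KO replicate 1, 0.08 without P-Apex1KO replicate 4, and -0.06 with replicate number as a block, so the direction of the median at 3-dpf turned with the block.

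Markers of some other cell types were also low in replicate 1 labelled P-Apex1KO, and others were high. In that library the 13 measured erythroid markers summed to 290 CPM, against 423 to 2673 CPM in the 4 WT libraries, and the 11 measured B cell precursor markers to 115 CPM against 173 to 309 CPM. The 14 monocyte and macrophage markers went the other way, with 3754 CPM against 2178 to 2898 CPM in WT, as did the 12 skeletal muscle markers, with 14417 CPM against 4235 to 6013 CPM, both the highest of the 3-dpf libraries. No marker of the erythroid and B cell precursor lists was at 0 in every library of a group. Their part in the result was not tested.

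At 6-dpf the genotypes overlapped for all 10 genes. *S100a8* was at 943, 1143, 925, 969 and 928 CPM in WT and at 1284, 809 and 1323 CPM in P-Apex1KO mice. *Mpo* was at 339, 334, 268, 348 and 290 CPM in WT and at 384, 271 and 333 CPM in P-Apex1KO mice. *Ngp* was at 1246, 1498, 1197, 1233 and 1041 CPM and at 1383, 1085 and 1483 CPM, respectively. P-Apex1KO replicate 2 was the lowest of its group for each of the 3 and for the other 7. No member was called by edgeR, against 5.31% of 20260 genes called higher; none had an unadjusted p under 0.05, and DESeq2 called 0. Log2 fold changes ran from -0.02 for *Prtn3* (0.18 with library size alone as the scaling) to 0.27 for *Camp*, with standard errors of 0.14 to 0.24 and a median of 0.14 against 0.01 over all genes. Without P-Apex1KO replicate 2, *Camp* was called higher, as were 4.84% of all genes. All 10 cartilage markers were lower at this time, with sums of 34802 to 62143 CPM in WT and 3041 to 5536 CPM in P-Apex1KO mice, and 11 of 12 skeletal muscle markers were higher, with sums of 3789 to 6982 CPM and 9040 to 20797 CPM. Their part in the member levels was not tested.

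Levels did not pass the test for a change from 3- to 6-dpf in either genotype. In WT the log2 differences ran from -0.41 to 0.19 with a median of 0.06 and standard errors of 0.41 to 0.49. No member was called, against 30.5% of 20468 genes called in either direction. In P-Apex1KO mice the differences ran from -0.32 to 0.13 with a median of -0.11, and no member was called, against 14% of genes. No member had an unadjusted p under 0.05 in either, and DESeq2 called 0. Without P-Apex1KO replicate 1 of 3-dpf all 10 differences in P-Apex1KO mice were below 0, from -0.66 to -0.23 with a median of -0.45 and standard errors of 0.19 to 0.32. In that fit *S100a8* had an unadjusted p under 0.05 (-0.55 ± 0.22, adjusted p = 0.111, edgeR), no member was called, and 16% of 20368 genes were. The differences in WT then ran from -0.42 to 0.18 with a median of 0.06 and smaller standard errors, of 0.16 to 0.26. None of them had an unadjusted p under 0.05, and adjusted p-values were at least 0.210 (edgeR). The interaction test between 3- and 6-dpf called no member and 1.3% of genes (median -0.09, standard errors 0.62 to 0.74, 0 with an unadjusted p under 0.05, 0 by DESeq2). Without the same library the median was -0.44 with standard errors of 0.25 to 0.41, and again no member was called or had an unadjusted p under 0.05, against 2.21% of genes called.

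Among the other genes of the neutrophil program, some fell between these times in WT, where 15.1% of all genes fell. Of the 9 measured chemokines and growth factors that recruit or expand neutrophils, 6 fell from 3- to 6-dpf and none rose, with a median log2 difference of -2.65. *Il1b*, the inflammatory cytokine, went from a mean of 86.4 CPM to 14.0 CPM in WT, a log2 difference of -2.62 ± 0.34 (adjusted p = 7.96e-05, edgeR). Of 22 mature neutrophil markers 7 fell and none rose, and of 6 NADPH oxidase subunits 4 fell. *Csf3r*, the receptor of the granulocyte growth factor, fell by 0.62 on the log2 scale (adjusted p = 0.00985). The median log2 differences of the mature neutrophil and NADPH oxidase lists were -0.13 and -0.58, against -0.03 over all genes. Monocyte and macrophage markers fell with them, 11 of 14 with none rising, and their sums in WT went from 2178 to 2898 CPM at 3-dpf to 1243 to 1603 CPM at 6-dpf. Macrophages also express several genes of these lists, *Il1b* and *Cybb* among them, and their part in the falls was not tested.

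At 10-dpf *Prtn3* was higher in P-Apex1KO callus, and the estimates of the other 9 members were also above 0 without passing. *Prtn3* was at 28.3, 26.4, 45.8 and 41.0 CPM in WT and at 78.0, 108 and 57.5 CPM in P-Apex1KO mice at 10-dpf. All 3 P-Apex1KO libraries lay above the highest WT library. Its log2 fold change was 1.18 ± 0.23 (SE), or 2.26-fold, with an adjusted p of 0.0347 (edgeR), and it was the 1 member of 10 that passed, against 3.01% of 18910 genes called higher. *Elane* was at 37.6, 26.1, 54.9 and 55.8 CPM in WT and at 89.4, 126 and 61.3 CPM in P-Apex1KO mice, without overlap (1.07 ± 0.29, adjusted p = 0.0829). *Camp* was at 47.6, 56.0, 134 and 127 CPM and at 156, 228 and 139 CPM, also without overlap (0.95 ± 0.27, adjusted p = 0.0950). These 3 of the 10 members did not overlap, against 8.78% of all genes higher without overlap.

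The other 7 genes overlapped at 10-dpf, in each case through at least 1 WT male and P-Apex1KO replicate 3. *S100a8* was at 301 and 251 CPM in the WT females, 688 and 599 CPM in the WT males, 761 CPM in the P-Apex1KO female and 1191 and 644 CPM in the P-Apex1KO males. *S100a9* was at 185, 183, 420 and 401 CPM in WT and 500, 811 and 416 CPM in P-Apex1KO mice in the same order. *Mpo* was at 141, 112, 169 and 204 CPM and at 348, 392 and 187 CPM. For all 10 genes the WT females lay below the WT males. All 10 genes had a positive log2 fold change, from 0.75 for *Ly6g* to 1.18 for *Prtn3*, with a median of 0.93 against -0.0031 over all genes, all 10 had an unadjusted p under 0.05, and the highest adjusted p was 0.170.

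The number of calls at 10-dpf moved with the fit. With no filter on low counts, or with replicate number as a block in place of sex, none was called. In these 2 fits 2.9% and 3.78% of all genes were called higher. DESeq2 called 10 of the 10 higher, against 6.33% of all genes. The model with the 14-dpf libraries added called 8, against 3.79%, and without P-Apex1KO replicate 3 edgeR called 10, against 2.17%. Without P-Apex1KO replicate 1, the only female of its group, or without WT replicate 1, 2 or 4, none was called, and among the males alone none was called and the median was 0.56. In these fits 0.113%, 0.272%, 0.441%, 5.38% and 0% of all genes, respectively, were called higher. At 10-dpf the names of the female samples lack the time point that those of the males carry.

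**Figure D2:**
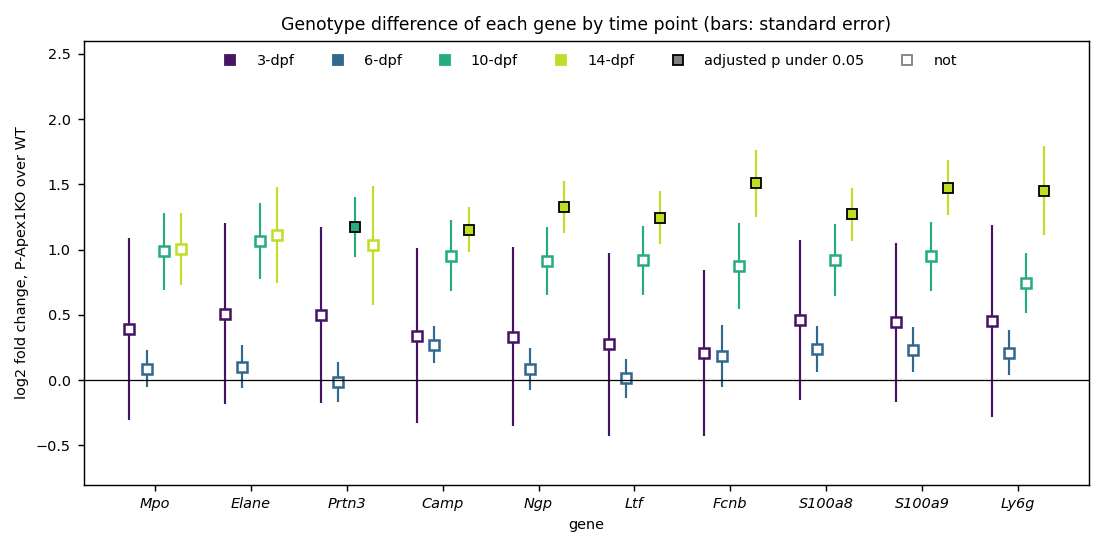
Log2 fold change of P-Apex1KO over WT (vertical) for each of the 10 genes (horizontal) at 4 time points; squares are estimates of the fit with sex, bars are standard errors, and filled squares with a black edge passed an adjusted p of 0.05. The filled squares are Prtn3 at 10-dpf and 7 genes at 14-dpf, and the bars at 3-dpf are the longest.

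At 14-dpf the specific granule members, both S100 genes and *Ly6g* were higher in P-Apex1KO callus, by 2.22- to 2.84-fold in the fit with sex. Without the WT female, the lowest WT library for each of them, the same genes were higher by 1.56-fold (*Camp*) to 2.17-fold (*Ly6g*). *S100a8* was at 278 CPM in the WT female, 367, 394 and 421 CPM in the WT males, and 682, 755 and 540 CPM in the P-Apex1KO females. *S100a9* was at 148, 247, 234 and 277 CPM in WT and at 430, 458 and 327 CPM in P-Apex1KO mice. The lowest P-Apex1KO library of either gene lay above the highest WT library, and the WT female was the lowest WT library. The log2 fold changes were 1.27 ± 0.20 (adjusted p = 0.00814) for *S100a8* and 1.48 ± 0.21 (adjusted p = 0.00529) for *S100a9* by edgeR.

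The specific granule genes showed the same separation. *Camp* was at 51.9, 73.4, 75.9 and 76.3 CPM in WT and at 122, 126 and 93.1 CPM in P-Apex1KO mice (1.15 ± 0.18, adjusted p = 0.00691). *Ngp* was at 354, 454, 442 and 575 CPM and at 815, 935 and 860 CPM (1.33 ± 0.20, adjusted p = 0.00620). *Ltf* was at 219, 259, 261 and 340 CPM and at 519, 557 and 449 CPM (1.24 ± 0.21, adjusted p = 0.00938). The WT female, listed first, was again the lowest library of each gene. *Fcnb* was at 8.37, 12.6, 13.7 and 14.9 CPM in WT and at 20.2, 28.9 and 21.0 CPM in P-Apex1KO mice (1.51 ± 0.26, adjusted p = 0.0107). This was the largest of the 10 estimates in the fit with sex. Without the WT female *Fcnb* stood at 0.81, and *Ly6g* was the largest at 1.11. *Ly6g* was at 5.01, 5.24, 5.84 and 8.13 CPM in WT and at 12.5, 16.6 and 11.2 CPM in P-Apex1KO mice (1.45 ± 0.34, adjusted p = 0.0335).

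The azurophil granule members did not pass at 14-dpf, although their groups did not overlap. *Mpo* was at 137, 136, 140 and 164 CPM in WT and at 207, 339 and 261 CPM in P-Apex1KO mice (1.00 ± 0.28, adjusted p = 0.0596). *Elane* was at 32.9, 34.6, 36.6 and 39.0 CPM and at 47.1, 95.2 and 66.5 CPM (1.11 ± 0.37, adjusted p = 0.102). *Prtn3* was at 27.8, 31.0, 32.2 and 30.5 CPM and at 34.0, 82.7 and 50.5 CPM (1.03 ± 0.45, adjusted p = 0.196). In each the WT libraries lay close together, the P-Apex1KO libraries were spread out, and P-Apex1KO replicate 1 was the lowest of them. Without that library all 10 members passed, against 6.97% of all genes called higher, and without WT replicate 2 or 3 *Ly6g* no longer did, with 2% and 2.26% of genes. Without the WT female *Mpo* (0.92 ± 0.18, adjusted p = 0.00926) and *Elane* (0.97 ± 0.24, adjusted p = 0.0207) passed by edgeR. *Prtn3* did not (0.88 ± 0.30, adjusted p = 0.0576), and 17.6% of all genes were called higher. The mean log2 CPM of *Elane*, *Mpo* and *Prtn3* minus that of *Camp*, *Ltf* and *Ngp* was -1.91 ± 0.18 (SD, n = 4) in WT at 14-dpf. In P-Apex1KO mice it was -1.92 ± 0.46 (n = 3).

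In all, 7 of the 10 members were called higher at 14-dpf, against 4.28% of 20228 genes, and all 10 were higher without overlap, against 18.5% of genes. Their median log2 fold change was 1.26 against 0.04 over all genes. All P-Apex1KO mice at this time were female and 1 WT mouse was, so the estimate with sex in the model rests on that mouse. Without it, and so without a sex term, 9 members were called with a median of 0.87, and 17.6% of 18101 genes were called higher, up from 4.28%. The log2 fold changes then ran from 0.64 for *Camp* to 1.11 for *Ly6g*, and those that moved by over 1.5 times as folds were *S100a9*, from 2.78-fold to 1.65-fold (0.73 ± 0.14), and *Fcnb*, from 2.84-fold to 1.76-fold (0.81 ± 0.16). In the females alone, 1 WT against 3 P-Apex1KO mice, the median was 1.26. With 1 WT library that fit has no spread of its own in WT, so its calls are not given. A single model of all 30 libraries called none of the 10 at 10- or 14-dpf, against 3.31% and 12.7% of genes called higher, and the same model without P-Apex1KO replicate 1 of 3-dpf called 8 and 10, against 4.35% and 14.4%.

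Between 10- and 14-dpf no member passed the test for a change in either genotype. In WT all 10 estimates were below 0, from -0.69 ± 0.22 for *Ly6g* (adjusted p = 0.0591, edgeR) to -0.16 with a median of -0.41, 4 had an unadjusted p under 0.05, and DESeq2 called *Ly6g* lower, with 6.44% of all genes. By edgeR 11.1% of 19705 genes were called in either direction, and without P-Apex1KO replicate 3 of 10-dpf *S100a9*, *Ly6g* and *Fcnb* were called lower, with 4.52% of genes. In P-Apex1KO mice the median was 0.01, none had an unadjusted p under 0.05, DESeq2 called 0 and 0.259% of genes were called. The interaction test called no member and 0.436% of genes, with a median change of the genotype difference of 0.42, standard errors of 0.33 to 0.43, 1 member with an unadjusted p under 0.05 and 0 called by DESeq2. The 10- and 14-dpf genotype differences of the members were thus not shown to differ.

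The wider neutrophil lists, which share members with the 10, also held genes that differed at 14-dpf. Of 13 specific granule genes 11 were higher and none lower in P-Apex1KO callus. *Lcn2*, a lipocalin that binds bacterial siderophores, had means of 125 CPM in WT and 247 CPM in P-Apex1KO mice (log2 fold change 1.34 ± 0.18, adjusted p = 0.00460, edgeR). *Chil3*, a chitinase-like protein, went from 108 to 219 CPM (1.58 ± 0.29, adjusted p = 0.0152). Lysozyme, *Lyz2*, which macrophages also make, went from 753 to 1285 CPM (1.00 ± 0.18, adjusted p = 0.0119). Of 22 mature neutrophil markers 13 were higher and none lower, among them *Cxcr2*, the chemokine receptor of blood neutrophils (1.18 ± 0.29, adjusted p = 0.0422), and *Retnlg* (1.06 ± 0.25, adjusted p = 0.0377), whereas *Csf3r* did not pass (1.36 ± 0.46, adjusted p = 0.114).

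The azurophil list was divided. Of its 10 genes 5 were higher (*Ctsg*, *Ms4a3*, *Serpinb1a*, *Srgn* and *Cst7*) and 2 lower at 14-dpf, none of them a member. *Srgn*, the proteoglycan core that packs granule proteins, was higher (1.10 ± 0.22, adjusted p = 0.0197). The lysosomal enzymes *Hexa* (-1.32 ± 0.12, adjusted p = 0.00111) and *Gusb* (-0.94 ± 0.13, adjusted p = 0.00534) were lower, and many other cell types make both. In the gelatinase and adhesion list 3 of 8 genes were higher (*Mmp25*, *Adam8* and *Itgam*) and *Mmp9* was lower, at means of 4919 CPM in WT and 831 CPM in P-Apex1KO mice (-2.60 ± 0.31, adjusted p = 0.00308). *Mmp9* is a gelatinase of neutrophils and also an osteoclast enzyme. Of 6 NADPH oxidase subunits 2 were higher, *Cybb* (1.06 ± 0.17, adjusted p = 0.00838) and *Ncf1* (0.79 ± 0.18, adjusted p = 0.0275), and *Rac2* stood at -0.07 ± 0.24 (adjusted p = 0.877).

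At 6-dpf no member passed, while 5.31% of 20260 genes were called higher (3.01% at 10-dpf and 4.28% at 14-dpf). Among the genes called at 6-dpf were some of the wider neutrophil lists and some that act upstream of neutrophil production and recruitment. Of 13 specific granule genes 2 were higher, *Hp* and *Lyz2* (0.57 ± 0.13, adjusted p = 0.0248, edgeR), of 22 mature neutrophil markers 2, *Clec4d* and *Trem1*, and of 8 gelatinase and adhesion genes 1, *Selplg*. These small counts were not tested against the share of all genes. Of 11 transcription factors of granulocytes 5 were higher in P-Apex1KO callus at 6-dpf, *Cebpa*, *Cebpb*, *Cebpd*, *Spi1* and *Irf8*, at 10-dpf 2, *Cebpa* and *Irf8*, and at 14-dpf 2, *Myb* and *Klf5*. *Spi1*, which encodes PU.1 and also acts in macrophages and osteoclasts, was higher at 6-dpf (0.51 ± 0.11, adjusted p = 0.0222, edgeR) and lower at 14-dpf (-0.67 ± 0.13, adjusted p = 0.0178), the 1 factor that was lower. *Irf8*, a factor of monocytes, was higher at 6-dpf (0.67 ± 0.15, adjusted p = 0.0203) and 10-dpf (0.80 ± 0.16, adjusted p = 0.0329). At 6-dpf 9 of 14 monocyte and macrophage markers were higher as well, with sums of 1243 to 1603 CPM in WT and 1954 to 2167 CPM in P-Apex1KO mice, and their part in these differences was not tested. Of 8 measured chemokines and growth factors 3 were higher at 6-dpf, *Cxcl5*, *Il6* and *Il1b* (1.17 ± 0.24, adjusted p = 0.0178). Among 7 measured chemokines and growth factors 2 were higher at 10-dpf, *Cxcl5* and *Il1b* (1.13 ± 0.14, adjusted p = 0.00868), and 1 at 14-dpf, the platelet chemokine *Ppbp* (1.51 ± 0.17, adjusted p = 0.00233). *Cxcl12*, the stromal chemokine that holds neutrophils in the marrow, had means of 1620.4 CPM in WT and 760 CPM in P-Apex1KO mice at 14-dpf and did not pass (-1.33 ± 0.49, adjusted p = 0.135).

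**Figure D3:**
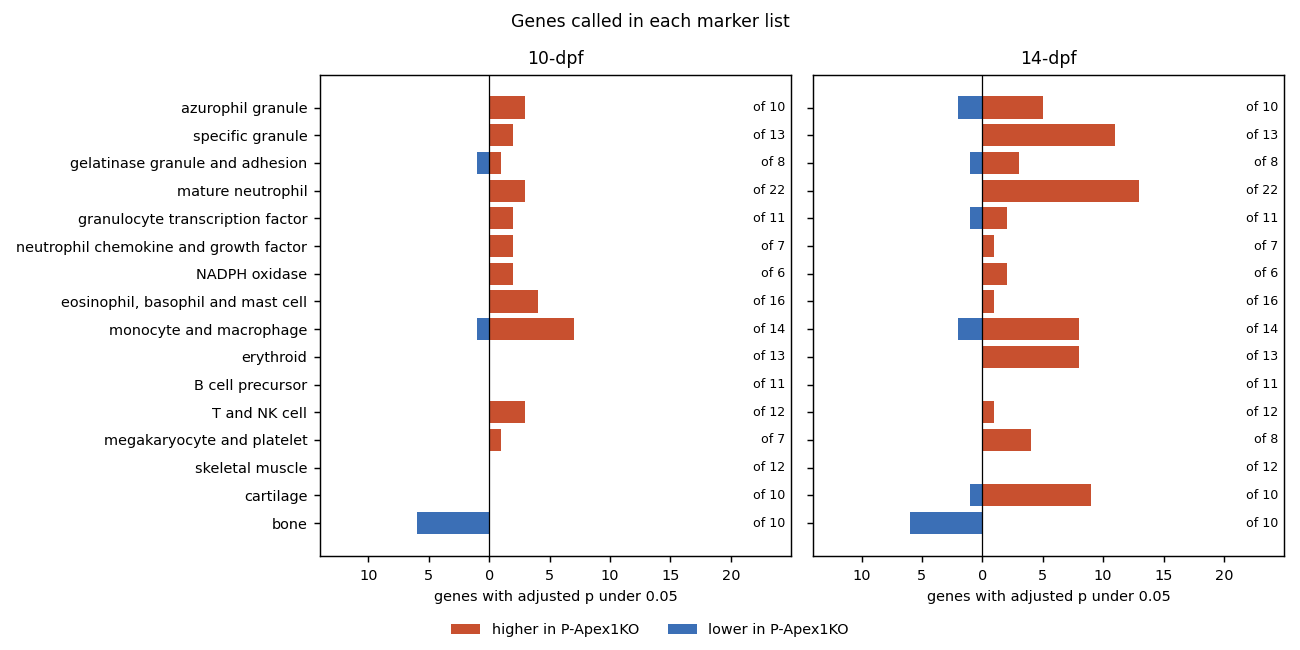
Number of genes with an adjusted p under 0.05 (horizontal) in each of 16 marker lists (vertical) at 10-dpf and 14-dpf; red bars to the right are genes higher and blue bars to the left genes lower in P-Apex1KO mice, with the number tested at the right edge. At 14-dpf 11 of 13 specific granule and 8 of 13 erythroid genes are higher, and 6 of 10 bone genes are lower.

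Markers of other marrow cells moved with the members at 14-dpf. Of 13 erythroid markers 8 were higher and none lower, with a median log2 fold change of 1.15, and their summed level was 1470 to 1552 CPM in WT and 2649 to 3019 CPM in P-Apex1KO mice. Of 8 megakaryocyte and platelet markers 4 were higher (*Pf4*, *Itga2b*, *Gp1ba* and *Gp5*), with sums of 94.9 to 124 CPM and 166 to 233 CPM. Of 11 B cell precursor markers none passed, with a median of 1.96 and sums of 262 to 317 CPM and 373 to 896 CPM. Of 14 monocyte and macrophage markers 8 were higher and 2, *Cd68* and *Csf1r*, lower, with sums of 1561 to 1636 CPM and 1899 to 1963 CPM. No gene of these lists was at 0 in all libraries of a group. Eosinophil, basophil and mast cell markers summed to 217 to 345 CPM in WT and 476 to 743 CPM in P-Apex1KO mice. T and NK cell markers summed to 37.6 to 41.6 CPM and 61.0 to 134 CPM, and neither sum overlapped between genotypes. Bone markers went the other way, with 6 of 10 lower and sums of 128963 to 174863 CPM in WT and 33331 to 35794 CPM in P-Apex1KO mice. Of 10 cartilage markers 9 were higher and 1 lower in the fit with sex, although their sums overlapped, at 3739 to 11093 CPM in WT, the lowest in the WT female, and 7419 to 11378 CPM in P-Apex1KO mice. Of 12 skeletal muscle markers none passed, with sums of 1548 to 5600 CPM, the highest in the WT female, and 3861 to 14010 CPM. The part of these cells in the result was not tested.

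Several of these counts at 14-dpf moved when the WT female was left out, and so did the count over all genes, of which 17.6% were then called higher and 16.6% lower, against 4.28% and 7.04% with it. In that fit, which has no sex term, 11 of 13 specific granule genes and 18 of 20 mature neutrophil markers were higher. Of the other cell types, 10 of 12 erythroid, 6 of 8 megakaryocyte and platelet, 8 of 11 B cell precursor, 10 of 12 T and NK cell, 13 of 16 eosinophil, basophil and mast cell and all 12 skeletal muscle markers were then higher, and of 14 monocyte and macrophage markers 11 were higher and 3 lower. Among cartilage markers 3 of 10 were then higher and 1 lower, and among bone markers 9 of 10 were lower. In the azurophil list 7 were then higher and 2 lower, and in the gelatinase and adhesion list 5 and 1.

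At 10-dpf the same lists gave other counts, where 3.01% of 18910 genes were called higher and 3.44% lower. In the granule, mature neutrophil and NADPH oxidase lists *Serpinb1a*, *Srgn*, *Hp*, *Lyz2*, *Itgal*, *G0s2*, *Clec4e*, *Trem3*, *Cybb* and *Cyba* were higher besides *Prtn3*. *Mmp9* was lower (-2.05 ± 0.31, adjusted p = 0.0173, edgeR). None of the 13 erythroid markers passed, with a median of 0.44 and sums of 1459 to 2375 CPM in WT and 1787 to 2823 CPM in P-Apex1KO mice. Of 14 monocyte and macrophage markers 7 were higher, with sums of 1141 to 1610 CPM and 1744 to 1888 CPM, and of 10 bone markers 6 were lower. Of 16 eosinophil, basophil and mast cell markers 4 were higher, *Ear1*, the basophil protease gene *Mcpt8*, and the eosinophil granule protein genes *Prg2* (0.63 ± 0.11, adjusted p = 0.0187) and *Epx* (0.55 ± 0.09, adjusted p = 0.0181). Skeletal muscle markers summed to 1365 to 4374 CPM in WT and 3960 to 8681 CPM in P-Apex1KO mice. Megakaryocyte and platelet markers summed to 72.5 to 168 CPM and 159 to 226 CPM, and both lists overlapped between genotypes. The part of all these cells in the 10-dpf differences was not tested.

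Within groups the 10 genes varied together from library to library. With log2 CPM centred on the mean of each genotype and time, Pearson's r of the 45 pairs of members ran from 0.872 to 0.994 with a median of 0.944 over the 30 libraries, and from 0.587 to 0.976 with a median of 0.845 without P-Apex1KO replicate 1 of 3-dpf. All members share library and depth, and the values are a description. The 10 other genes most like the mean of the members, of 15931 compared in the same way, were *Lcn2* (r = 0.991), *Cd177* (0.989), *Ly6a2* (0.983), *Itgb2l* (0.979), *Trem3* (0.978), *Pglyrp1* (0.978), *Mmp8* (0.970), *Cebpe* (0.969), *Ctsg* (0.966) and *Ms4a3* (0.961). Of these, 6 were also among the first 10 without that library, with *Lcn2* first in either case. Genes with r of at least 0.9 numbered 92 with it and 17 without it.

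The mean of the other cell type lists followed the members to different degrees. Over 30 libraries r was 0.982 for the 9 specific granule genes that are no members, 0.941 for the 7 azurophil genes, 0.798 for the 19 mature neutrophil genes, 0.923 for the 8 megakaryocyte and platelet genes, 0.814 for the 13 erythroid genes and -0.192 for the 14 monocyte and macrophage genes. Without P-Apex1KO replicate 1 of 3-dpf it was 0.968, 0.914, 0.870, 0.751, 0.501 and 0.292, respectively.

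The ratio of the calprotectin genes split the series by sample name style and time rather than by genotype. *S100a8* over *S100a9*, both in CPM, was 0.838 to 1.02 in the 16 libraries of 3- and 6-dpf and 1.37 to 1.88 in the 14 libraries of 10- and 14-dpf, without overlap. At 10-dpf the ratio was 1.53 ± 0.128 (SD, n = 4) in WT and 1.51 ± 0.0415 (n = 3) in P-Apex1KO mice, and at 14-dpf 1.64 ± 0.178 and 1.63 ± 0.0361. *Camp* over *Ngp* went the other way, from 0.223 ± 0.0248 in the 16 earlier to 0.153 ± 0.0258 in the 14 later libraries, with overlap. Time and library batch cannot be told apart here, and the ratio of *S100a8* to *S100a9* within 10- or 14-dpf differed between genotypes by less than its spread. *Camp* over *Ngp* at 6-dpf was 0.195 to 0.214 in WT and 0.224 to 0.240 in P-Apex1KO mice, without overlap. At 3-, 10- and 14-dpf the genotypes overlapped in that ratio.

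**Figure D4:**
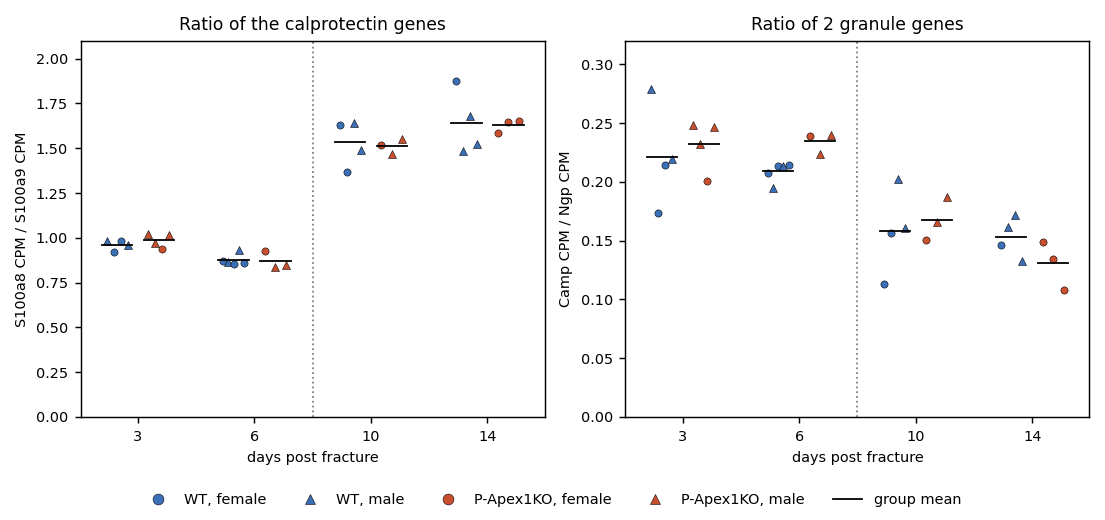
Ratio of S100a8 to S100a9 (left) and of Camp to Ngp (right), each in CPM over CPM, against days post fracture; every point is 1 library, circles are females, triangles males, black lines group means, and the dotted line marks the change in sample name style. The left ratio is 0.838 to 1.02 before the line and 1.37 to 1.88 after it in WT and P-Apex1KO libraries alike.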

How the data were processed

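The authors isolated RNA with Trizol from callus ground in liquid nitrogen, made stranded total RNA libraries depleted of rRNA and globin, aligned the reads with STAR 2.7.0d to mm39 and counted uniquely mapped, reverse-stranded fragments on Ensembl v104 genes with featureCounts. They deposited raw counts per gene, with no normalization. Depth was 18334389 to 43111491 counts per library. Counting error was not compared with the spread between samples.

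From the counts, each time point was fitted with edgeR 4.0.16 in R 4.3.3 (filterByExpr, TMM, genotype and sex, robust quasi-likelihood F tests, Benjamini-Hochberg adjustment over all genes tested, threshold 0.05), as were models of 2 time points for interactions and changes with time. The authors' own model used DESeq2 1.32.0 with sex, and DESeq2 1.42.0 was an alternative here. Standard errors are the size of the log2 fold change over the square root of F. CPM values use TMM over all 30 libraries, and centred log2 CPM a prior count of 2. Fits were tested on simulated data. Groups came from the deposited labels, which do not say that samples of a group came from separate mice, so p-values measure the spread between samples. WT and P-Apex1KO libraries with the same replicate number had r of 0.126 to 0.500 in the 4 pairs at 3-dpf. For replicate 2 its own number was not the best match. At 6-, 10- and 14-dpf r ran from -0.125 to 0.126, -0.230 to 0.275 and -0.373 to -0.104, respectively. The block is given as an alternative at each time.

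All 10 members are named, and from each of 16 marker lists the 3 other genes with the highest mean CPM, plus the 10 genes most like the members. The members and lists were chosen with earlier results of these data known. No list was tested as a set. Where 5 or fewer genes of a list were called, those outside the rule are named without values and were chosen after their values were seen. Alternatives are in the closing section.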

Additional observations from a re-analysis of the deposited data

Results flagged for a closer look

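In 50 groups of 4 or 5 libraries (10 genes, 5 such groups each), 4 values lay far from the rest of their group, where chance gives about 1 in 20. At 6-dpf WT replicate 2, a male, had 1143 CPM of *S100a8*, where the other 4 WT libraries lay between 925 and 969 CPM, and 1321 CPM of *S100a9*, where they lay between 1039 and 1086 CPM. At 14-dpf WT replicate 4 had 164 CPM of *Mpo* against 136 to 140 CPM in the other 3 WT libraries, and the WT female, replicate 1, had 51.9 CPM of *Camp* against 73.4 to 76.3 CPM in the males. The *Mpo* and *Camp* values lay below the lowest P-Apex1KO library of the same time (207 and 93.1 CPM), and the *S100a8* and *S100a9* values lay within the range of the P-Apex1KO libraries of 6-dpf.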

How the results depend on the processing

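At 3-dpf no setting called a member, but with a replicate block in place of sex the log2 fold changes turned to -0.041 for *Elane*, -0.20 for *Mpo*, -0.021 for *Prtn3*, -0.078 for *Camp*, -0.25 for *Ltf*, -0.18 for *Ngp*, -0.035 for *Ly6g* and -0.22 for *Fcnb*. On leaving out 1 library they ran from -0.018 to 0.72 for *Mpo*, -0.077 to 0.58 for *Ltf* and -0.14 to 0.50 for *Fcnb*, each below 0 without P-Apex1KO replicate 4. At 6-dpf leaving out 1 library called 0 to 1 members, and other settings 0. *Prtn3* turned positive with library size alone (0.18), which put the median of all genes at 0.20 (0.31 at 14-dpf), with the replicate block (0.045) and with the 3-dpf libraries in the model (0.041). *Ltf* turned negative with the block (-0.022) and in the model of 29 libraries (-0.011). On leaving out 1 library the values ran from -0.27 to 0.15 for *Prtn3*, -0.087 to 0.14 for *Ltf*, -0.22 to 0.27 for *Elane*, -0.15 to 0.20 for *Mpo*, -0.064 to 0.21 for *Ngp* and -0.064 to 0.34 for *Fcnb*. At 10-dpf, where *Prtn3* was the 1 call, the count was 10 with DESeq2, 0 with no filter on low counts, 0 with the block, 0 in the model of 30 libraries, 8 in that of 29, 8 with the 14-dpf libraries, 0 in the males and 0 to 10 on leaving out 1 library. At 14-dpf it was 7, with 9 by DESeq2, 9 with the block and 10 without the sex term. In the latter fits 7.12%, 6.66% and 18.8% of all genes, respectively, were called higher. The count of members at 14-dpf was 0 in the model of 30 libraries, 10 in that of 29, and 6 to 10 on leaving out 1 library. From 10- to 14-dpf in WT the count was 0, with 1 by DESeq2 and 0 to 3 on leaving out 1 library (3 without P-Apex1KO replicate 3 of 10-dpf). Of all genes, 6.44% were called lower by DESeq2 and 4.52% without that replicate. Over the fits of the genotype difference 0% to 6.33% of all genes were called higher at 10-dpf. At 14-dpf the share was 2% to 18.8%, leaving aside the fit of the females alone. The cause of these moves was not tested. At 10- and 14-dpf no member changed direction under any setting. The models of 29 libraries, those with the neighbouring time, those within 1 sex and the list counts without the WT female of 14-dpf were added after the data were seen.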
